A study of Mus musculus with 6 samples.

Results

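Thymocytes that had not yet been selected were compared after 7 h on gp250/I-Ek with the same kind of cells after 7 h on Hb/I-Ek. The members were chosen by the ligand named in the sample titles: 2 of the 6 arrays of the study were from gp250 and 2 from Hb, so 4 of 6 arrays enter the comparison. The other 2 arrays were from MCC/I-Ek and were used for the shared estimate of the spread and, as another ligand, for scale. All cells were double-positive (CD4+CD8+) thymocytes with the genotype AND.Rag1-/- on the H-2d background, laid on plates coated with Ig dimers of I-Ek that carried 1 of the 3 peptides. The labels describe the gp250 stimulus as positive selection, the MCC stimulus as negative selection and Hb as non-selecting. AND is a transgenic T cell receptor that recognises a moth cytochrome c peptide on I-Ek, gp250 is a self-peptide, and Hb is a haemoglobin peptide. Without Rag1 the cells cannot rearrange their own receptor genes, so every cell carries the same receptor. The cells were cultured apart from the thymus, with no array from unstimulated cells, from another time or from a purified mature stage used here, and the age and number of the mice are not given in the labels. Whether arrays of 1 ligand stem from different mice or different cultures is not stated, and p-values here rest on the spread among these arrays alone, which may be technical.

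A double-positive thymocyte tests its receptor against peptides that the thymus presents. Weak engagement allows survival and maturation into a CD4 or CD8 T cell (positive selection), strong engagement leads to death (negative selection), and no engagement leads to death by neglect. Receptor signals in these cells are known to reach the nucleus through calcium entry and the ERK kinases, to raise EGR and NR4A transcription factors, CD69 and CD5, and to shut off the recombinase genes Rag1 and Rag2. In AND thymocytes, Scn4b, the regulatory subunit of a voltage-gated sodium channel, has been tied to the sustained calcium entry that a weak ligand gives.

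Genes of the stage before selection were detected under both ligands at close levels, and no probe was called between gp250 and Hb. Of 25697 probes, 11393 were detected above background (detection p under 0.05) on at least 2 of these 4 arrays and were tested, 10206 of them (89.6%) on all 4. Differences are gp250 minus Hb on the log2 scale, so that 1 stands for 2-fold, each with its standard error from limma. With Benjamini-Hochberg adjustment over all tested probes, 0 of 11393 probes (0%) had an adjusted p under 0.05; the lowest adjusted p was 0.682. Without adjustment, p was under 0.05 for 387 probes (3.40%) that were higher and 379 (3.33%) that were lower with gp250, 766 in all (6.72%). About 570 would be so if no probe differed and the p-values were exact. The median absolute difference was 0.09, and 61 probes (0.535%) differed by more than 1.5-fold. A single probe, of Prss8, differed by more than 2-fold, a count that depends on the background correction and its offset (0 probes with an offset of 50, 7 with no background correction).

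Arrays of different ligands differed by about as much as arrays of the same ligand. Over the tested probes, the median absolute difference was 0.122 between the gp250 arrays and 0.125 between the Hb arrays, and it lay between 0.122 and 0.129 for the 4 pairs made of a gp250 and an Hb array. The arrays of both ligands were also alike in brightness, with mean deposited signals of 445 and 482 for gp250 and 488 and 470 for Hb, and with 11025 to 11603 probes detected. Both gp250 arrays were above both Hb arrays for 1955 probes (17.2%) and below both for 2032 (17.8%). These 2 shares are the background for the counts of genes whose arrays did not overlap, below.

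What the arrays allow is set by the intervals. The 95% interval of the difference lay within 2-fold in both directions for 11224 probes (98.5%) and within 1.5-fold for 9344 (82.0%). At the median, a bound of the interval lay 0.27 from the estimate. To pass the adjustment as the only probe, a gene at the median spread would have needed a difference of 1.63, or 3.10-fold, so a smaller response confined to few genes would not have been called at this number of arrays.

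The markers matched the labelled stage under both ligands. Rag1, which cuts DNA at the receptor genes, had normalised signals of 13.12 and 13.27 with gp250 and 13.04 and 13.18 with Hb. The arrays of the ligands overlapped, and the difference was 0.08 ± 0.11 (95% interval −0.19 to 0.36). The signal of a Rag1 probe in Rag1-/- cells does not check the genotype, since where the probe lies relative to the disrupted sequence is not given. Dntt, the terminal transferase that adds bases at the joins, stood at 12.70 and 12.90 with gp250 and at 12.78 and 12.63 with Hb (0.09 ± 0.18, −0.33 to 0.52). Rag2, the partner of Rag1, stood at 8.75 and 8.73 against 9.0 and 8.83. Both gp250 arrays were lower than both Hb arrays by this probe, but the difference of −0.18 ± 0.09 (−0.40 to 0.05) was not called.

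The coreceptor genes were detected in the same way. Cd8b1 gave 15.60 and 15.48 with gp250 and 15.52 and 15.43 with Hb (0.07 ± 0.12). Cd4 gave 9.75 on both gp250 arrays and 9.87 and 9.91 on the Hb arrays, a difference of −0.14 ± 0.11 (−0.40 to 0.11). The Cd8a probe stayed at background on all 6 arrays and gives no information. Ptcra, the alpha chain of the receptor that precedes the mature one, was detected on all 4 arrays and differed by 0.03 ± 0.11. Arpp21, a cyclic AMP-regulated phosphoprotein gene known as a marker of this stage, had 13.73 and 13.69 against 13.62 and 13.56 (0.12 ± 0.11). A second, dimmer probe of Arpp21 did not overlap either, but in the other direction (−0.10 ± 0.08).

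**Figure D1:**
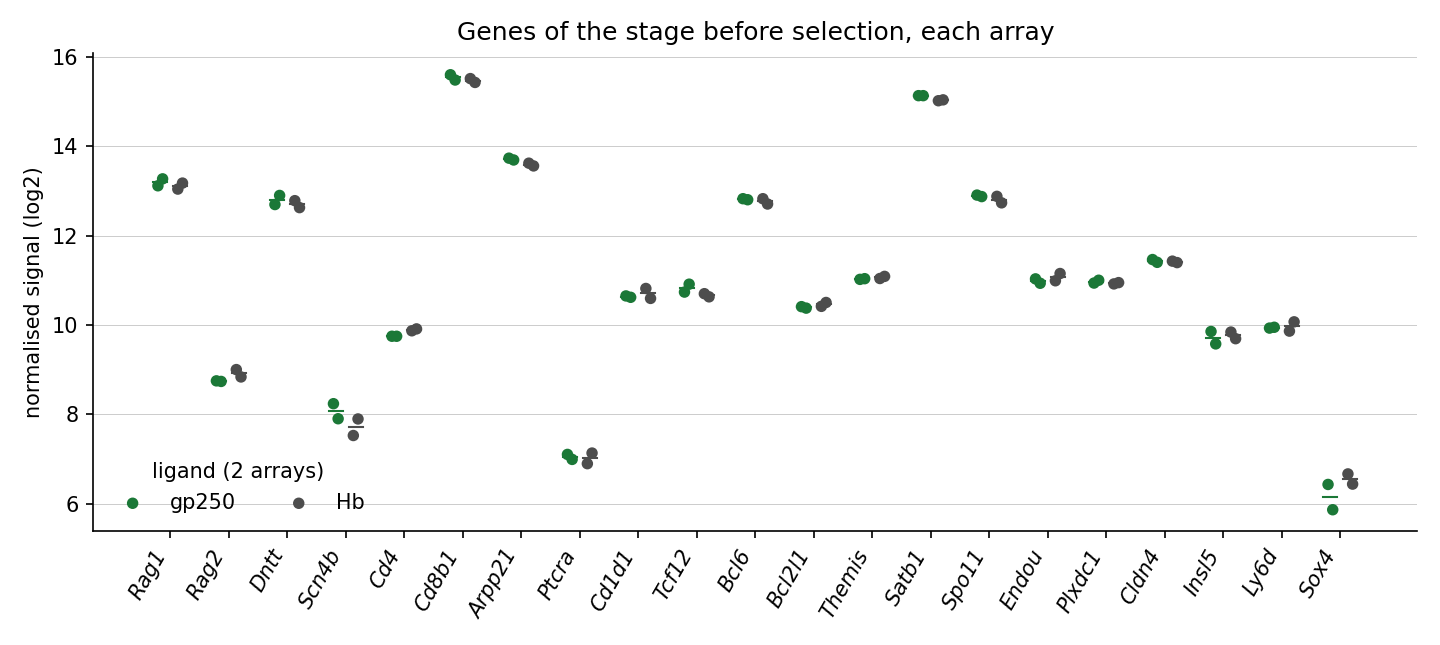
Normalised signal (log2, vertical axis) of the 21 tested genes of the stage before selection, with 1 point per array and a short line at the mean of each ligand. The gp250 and Hb points of each gene lie close together, with the widest gaps for Scn4b (0.36) and Sox4 (−0.40). Probes differ in efficiency, so heights are not comparable between genes.

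Of the 24 genes listed for this stage, 21 were tested, all 21 of them detected on all 4 arrays. None was called, 4 were higher on both gp250 arrays and 5 lower, and the median difference was 0.03 against 0.0019 over all tested probes. All 21 intervals lay within 2-fold and 19 within 1.5-fold. The lowest member was Sox4, an HMG-box transcription factor, with 6.43 and 5.86 against 6.66 and 6.44. Its gp250 arrays lay apart from each other by more than the ligands did, and the difference was −0.40 ± 0.21 (−0.91 to 0.10).

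Scn4b was the highest member of this list. Its signals were 8.24 and 7.90 with gp250 and 7.52 and 7.89 with Hb. The lower gp250 array (7.899) and the higher Hb array (7.895) were almost level, so that the groups barely separated. The difference was 0.36 ± 0.16 (−0.03 to 0.75, or 0.976-fold to 1.68-fold), with an adjusted p of 0.767 from limma. It was 0.17 without Hb replicate 1 and 0.55 without Hb replicate 2. The gp250 arrays lay about as far apart as the Hb arrays (standard deviations of 0.24 and 0.26), so the estimate rests on which arrays of either ligand are used. On the MCC arrays the probe was not detected, and gp250 was at least 4.79-fold above MCC.

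The recombination list held 11 tested genes of 14, of which 2 were higher and 3 lower on both gp250 arrays. The median difference was −0.01 and 10 of the 11 intervals lay within 1.5-fold. Xrcc4, which acts in the ligation of DNA ends, differed by 0.22 ± 0.13 (−0.09 to 0.52). The extremes were Polm, a polymerase of end joining, at 0.30 ± 0.17, and Hmgb2, a DNA-bending protein that assists the recombinase, at −0.23 ± 0.11.

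Genes that divide CD4 from CD8 fate differed as little. Of 17 listed, 12 were tested, 3 were higher on both gp250 arrays and 4 lower, and all 12 intervals lay within 2-fold. Gata3, a factor needed for the CD4 lineage, had 10.13 and 10.21 with gp250 and 10.20 and 10.38 with Hb (−0.12 ± 0.10, −0.37 to 0.13). The values of the ligands overlapped. Runx1, which represses Cd4 in early thymocytes, differed by 0.04 ± 0.16. The extremes were Myb at 0.28 ± 0.13 and Chd4, a chromatin remodeller, at −0.25 ± 0.10, which had an unadjusted p of 0.044 and an adjusted p of 0.737 from limma. The other probes of Chd4 had the opposite sign, 0.10 ± 0.16 and 0.08 ± 0.14, and that of Myb gave 0.46 ± 0.21. Zbtb7b, the gene of the CD4-lineage factor ThPOK, stayed at background on all 6 arrays.

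The receptor complex itself was measured tightly. Cd3e, an invariant chain of the receptor, had 13.69 and 13.67 with gp250 and 13.56 on both Hb arrays. The ligands did not overlap, and the difference was 0.12 ± 0.08 (−0.07 to 0.32). The other CD3 chains Cd3d and Cd3g differed by 0.10 ± 0.09 and −0.03 ± 0.09, and the zeta chain Cd247 by −0.14 ± 0.11. Of 23 genes of the complex and its first signalling steps, 20 were tested, 6 were higher and 5 lower on both gp250 arrays, the median difference was 0.02, and 18 intervals lay within 1.5-fold. The lowest was Fyn, a kinase of the first step, at 8.40 and 8.60 against 8.83 and 8.78 (−0.31 ± 0.10, unadjusted p of 0.021, adjusted p of 0.701 from limma). The highest was Ptprc, which encodes the phosphatase CD45, at 0.36 ± 0.19.

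The list of ion channels and calcium genes had 17 tested members of 26. Scn2b, another sodium channel subunit, gave 7.01 and 6.99 against 6.79 and 7.20, overlapping values with a difference of 0.0028 ± 0.15. Kcna3, a voltage-gated potassium channel, was the lowest of the list at 6.24 and 6.53 against 6.68 and 6.70, a difference of −0.31 ± 0.12 with an unadjusted p of 0.037. The calcium-activated channel Kcnn4 differed by −0.08 ± 0.10. Orai1, the pore of store-operated calcium entry, had 8.41 on both gp250 arrays and 8.41 and 8.51 on the Hb arrays, and its interval (−0.26 to 0.16) limits a change to between 0.836-fold and 1.12-fold. In all, 5 members were higher and 4 lower on both gp250 arrays, and every tested interval of the list lay within 2-fold.

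Early response genes give the limits on a positive-selection signal at 7 h. Egr1, a transcription factor that receptor signals raise within the first hour, had 10.34 and 10.07 with gp250 and 9.96 and 10.45 with Hb. The Hb arrays enclosed the gp250 arrays, the difference was −0.0014 ± 0.18, and its interval reached from 0.741-fold to 1.35-fold. Egr2, a related factor, was lower with gp250 at 7.47 and 7.51 against 7.82 and 7.90. The 4 arrays did not overlap, and the difference of −0.37 ± 0.09 (−0.59 to −0.16) had an unadjusted p of 0.0051 and an adjusted p of 0.682 from limma. It was thus not called, and its sign was opposite to the direction in which receptor signals are known to move the gene. Egr3 was detected on 1 array of each ligand and differed by −0.04 ± 0.17. With MCC its probe was as near to background, at 5.89 and 5.60, so its interval gives no limit on a response.

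Nr4a1, whose product NUR77 is used as a reporter of receptor signal strength, stayed at background on all 6 arrays, MCC included, so it gives no limit. Nr4a2 had 6.29 and 6.62 against 6.99 and 6.30, a difference of −0.19 ± 0.24. Fos, a subunit of AP-1, was the highest of this list at 0.08 ± 0.10 (−0.16 to 0.33). Of 23 early genes 15 were tested, 1 was higher and 4 were lower on both gp250 arrays, and the median difference was −0.09. That median lay between −0.15 (no scaling between arrays) and −0.06 (without Hb replicate 2) over the settings tried. All 15 intervals, that of Egr3 among them, lay within 2-fold and 11 within 1.5-fold. A further 7 genes, Nr4a1, Nr4a3, Nab2, Ier2, Ier5, Myc and Btg2, were on the array but not tested, and 4 of these (Nr4a3, Nab2, Ier2 and Myc) were detected with MCC. For those 4, the data say only that neither gp250 nor Hb brought them above background on 2 arrays.

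**Figure D2:**
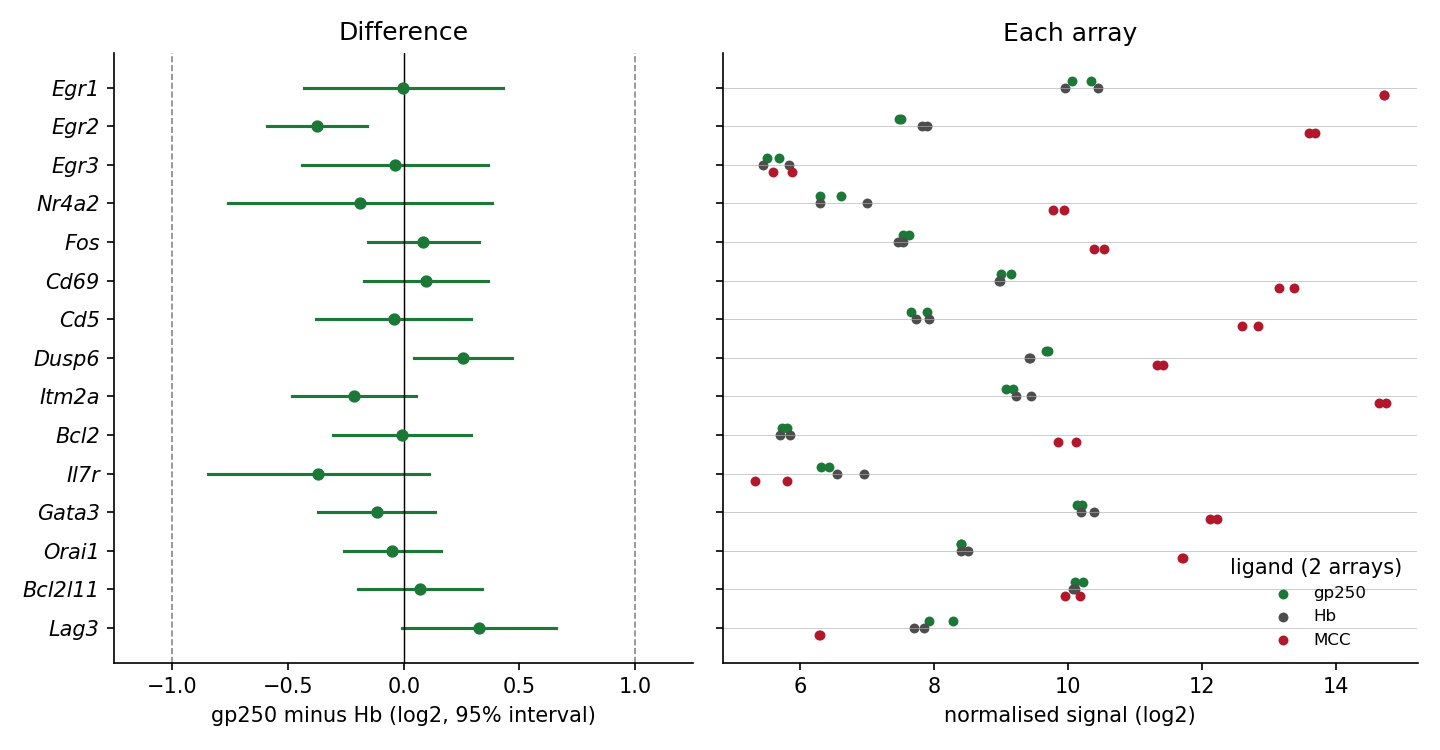
Left, gp250 minus Hb (log2) for 15 genes of receptor response, survival and maturation, with 95% intervals and dashed lines at 2-fold. Right, normalised signal (log2) on each array of gp250, Hb and MCC. All 15 intervals lie inside the dashed lines, and the gp250 and Hb points stand together while the MCC points of Egr2, Cd5 and Itm2a lie far to the right.

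Genes that restrain receptor signals were the next group. Cd5, a surface inhibitor whose level is known to follow receptor signal strength, had 7.90 and 7.66 with gp250 and 7.73 and 7.92 with Hb (−0.04 ± 0.14, −0.38 to 0.29). Cd6, its relative, differed by 0.20 ± 0.12. The dual-specificity phosphatases Dusp1 and Dusp2 differed by −0.02 ± 0.09 and 0.03 ± 0.09. Dusp6, a phosphatase that ERK signals raise and that switches ERK off, was the highest of the list, with 9.71 and 9.67 against 9.44 and 9.43. Its 4 arrays did not overlap, and the difference of 0.26 ± 0.09 (0.05 to 0.47) had an unadjusted p of 0.024 and an adjusted p of 0.707 from limma. The second, dimmer probe of Dusp6 was likewise higher with gp250, with 6.51 and 6.74 against 6.13 on both Hb arrays. Its difference was 0.49 ± 0.11 (0.23 to 0.75), with an unadjusted p of 0.0035 and an adjusted p of 0.682 from limma. The lowest was Ubash3a, a suppressor of receptor signalling, at −0.19 ± 0.18. Of 25 listed genes 17 were tested, 5 were higher and 2 lower on both gp250 arrays, 1 was higher at an unadjusted p under 0.05 (Dusp6), and the median was 0.05. A further 6 genes were on the array but not tested, and 3 of these (Dusp4, Spry1 and Rgs1) were detected on both MCC arrays.

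Genes known to rise as cells are selected and mature gave no call either. Cd69, an early marker of selected cells, had 9.16 and 9.004 with gp250 and 8.98 and 8.99 with Hb. The lower gp250 array lay just above both Hb arrays, and the difference of 0.10 ± 0.11 (0.887-fold to 1.29-fold) was 0.02 without gp250 replicate 1. Itm2a, a membrane protein gene tied to positive selection, had 9.18 and 9.07 against 9.23 and 9.45, with both gp250 arrays below both Hb arrays (−0.21 ± 0.11, −0.48 to 0.05). Bcl2, a survival gene of mature thymocytes, was near background at 5.73 and 5.81 against 5.70 and 5.85, detected on both gp250 arrays and 1 Hb array (−0.0055 ± 0.12). The lowest of the list was Il7r, the receptor chain for interleukin 7, at 6.32 and 6.44 against 6.55 and 6.95 (−0.37 ± 0.20). Cd53, a tetraspanin, was the highest at 0.14 ± 0.14. Of 24 genes 16 were tested, 2 were higher and 5 lower on both gp250 arrays, with a median of −0.09, which ran from −0.14 without Hb replicate 1 to 0.0005 without Hb replicate 2. All 16 intervals lay within 2-fold. Another 6 genes were on the array but not tested, and 1 of these (Ccr4) was detected on both MCC arrays.

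Genes of negative selection and death were examined for the opposite limit. Bcl2l11, whose product BIM kills strongly engaged thymocytes, had 10.11 and 10.23 with gp250 and 10.08 and 10.11 with Hb (0.07 ± 0.11, −0.20 to 0.34). Averaging its probes turned the sign (−0.10). Ikzf2, the gene of Helios, had 6.20 and 6.37 against 6.75 and 6.23, where the arrays of the ligands overlapped (−0.20 ± 0.25). The growth-arrest genes Gadd45a and Gadd45b differed by 0.02 ± 0.10 and −0.08 ± 0.13. Lag3, an inhibitory receptor, was the highest at 8.29 and 7.92 against 7.71 and 7.85, a difference of 0.32 ± 0.14 (−0.01 to 0.66) that was not called. In this list 12 of 20 genes were tested, and 2 were higher and 0 lower on both gp250 arrays. A further 6 genes were on the array but not tested, and 5 of these (Nr4a3, Pdcd1, Tnfrsf9, Rel and Xcl1) were detected on both MCC arrays. Those 5 were detected on fewer than 2 of the 4 gp250 and Hb arrays. The limit given here thus holds for the tested members alone.

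In the BCL2 family, which sets survival, all 16 tested genes (of 18) had intervals within 1.5-fold, with 2 higher and 2 lower on both gp250 arrays. Bcl2l1, whose product BCL-XL keeps double-positive cells alive, had 10.41 and 10.38 against 10.42 and 10.50 (−0.07 ± 0.09). Mcl1, another survival gene, differed by 0.03 ± 0.09. The extremes were Pmaip1, the gene of NOXA, at 0.23 ± 0.14 and Bad at −0.14 ± 0.10.

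Several of the same response genes, though not all, differed widely between gp250 and MCC, which share the gp250 arrays with the comparison above. Bcl2l11 and Egr3 did not, with gp250 minus MCC at 0.10 ± 0.11 and −0.14 ± 0.17. Over the tested probes, 6316 of 11393 (55.4%) were called between gp250 and MCC by limma with Benjamini-Hochberg adjustment. Cd69 stood at 13.37 and 13.15 with MCC, and gp250 minus MCC was −4.18 ± 0.11 (adjusted p = 3.5e-06). Egr2 stood at 13.60 and 13.69 with MCC, far above both gp250 and Hb, with gp250 minus MCC at −6.16 ± 0.09 (adjusted p = 1.29e-06 from limma). The same contrast was −4.94 ± 0.14 for Cd5, −5.57 ± 0.11 for Itm2a, −4.22 ± 0.12 for Bcl2 and −3.30 ± 0.09 for Orai1. In the other direction, Rag1 was 3.75 ± 0.11 and Dntt 4.71 ± 0.18 higher with gp250 than with MCC. Rag2 and Cd4 were not detected on either MCC array, and gp250 was at least 7.64-fold and at least 15.3-fold above MCC there. In bulk RNA, fewer cells of a kind and less RNA per cell cannot be told apart.

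Growth and metabolism were tested with 3 lists, none with a call. Of 14 tested genes of ribosome biogenesis and polyamine synthesis (of 19), 1 was higher and 3 were lower on both gp250 arrays. Odc1, the rate-limiting enzyme of polyamine synthesis, differed by 0.04 ± 0.10, while Srm, the next enzyme, had 5.96 and 5.30 against 6.02 and 5.97 (−0.37 ± 0.22) and was detected on 1 gp250 array. Bop1, a ribosome assembly factor, was the highest at 0.22 ± 0.10. Of 12 tested glycolysis genes (of 16), the glucose transporters Slc2a1 and Slc2a3 differed by 0.06 ± 0.11 and 0.24 ± 0.12. The lowest was the pyruvate kinase gene Pkm at −0.15 ± 0.09, and all 12 intervals lay within 1.5-fold.

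Of 13 tested genes of cholesterol synthesis (of 17), Hmgcs1, an early enzyme of the path, differed by 0.04 ± 0.11 and Sqle, the squalene epoxidase, by 0.0027 ± 0.11. Sc5d, a late desaturase of the path, had 6.34 and 6.29 with gp250 and 6.66 and 6.96 with Hb. These arrays did not overlap, and the difference of −0.50 ± 0.12 (−0.79 to −0.21) had an unadjusted p of 0.0055 and an adjusted p of 0.682 from limma. Idi1, an isomerase of the path, lay at the other end at 0.32 ± 0.15, but it was not detected on either Hb array and its gp250 signals of 5.73 and 5.60 were too near the limit of detection to give a fold. The median of the list was 0.0057.

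The cell cycle list had the lowest median of the 16 lists on thymocyte function, −0.13 over 19 tested genes of 25. On both gp250 arrays 2 of its 19 genes were higher and 8 were lower, where 17.2% and 17.8% of all tested probes were. None was called, and 2 were lower at an unadjusted p under 0.05. Mcm3, a subunit of the replication helicase, had 7.30 and 7.44 with gp250 and 7.59 and 7.76 with Hb (−0.31 ± 0.10, unadjusted p of 0.025). Cdk1, the kinase that starts mitosis and named here after its values were seen, had 9.86 and 9.89 against 10.09 and 10.11 (−0.23 ± 0.09, unadjusted p of 0.037). Top2a, a topoisomerase of dividing cells, differed by −0.16 ± 0.10, and the cyclin genes Ccne1, Ccne2 and Ccnd2 by −0.18 ± 0.11, −0.13 ± 0.14 and −0.21 ± 0.17. Rrm1, a subunit of ribonucleotide reductase, was the highest at 0.08 ± 0.12. The list median stayed between −0.17 (no scaling between arrays) and −0.07 (without Hb replicate 1), and all 19 intervals lay within 2-fold.

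**Figure D3:**
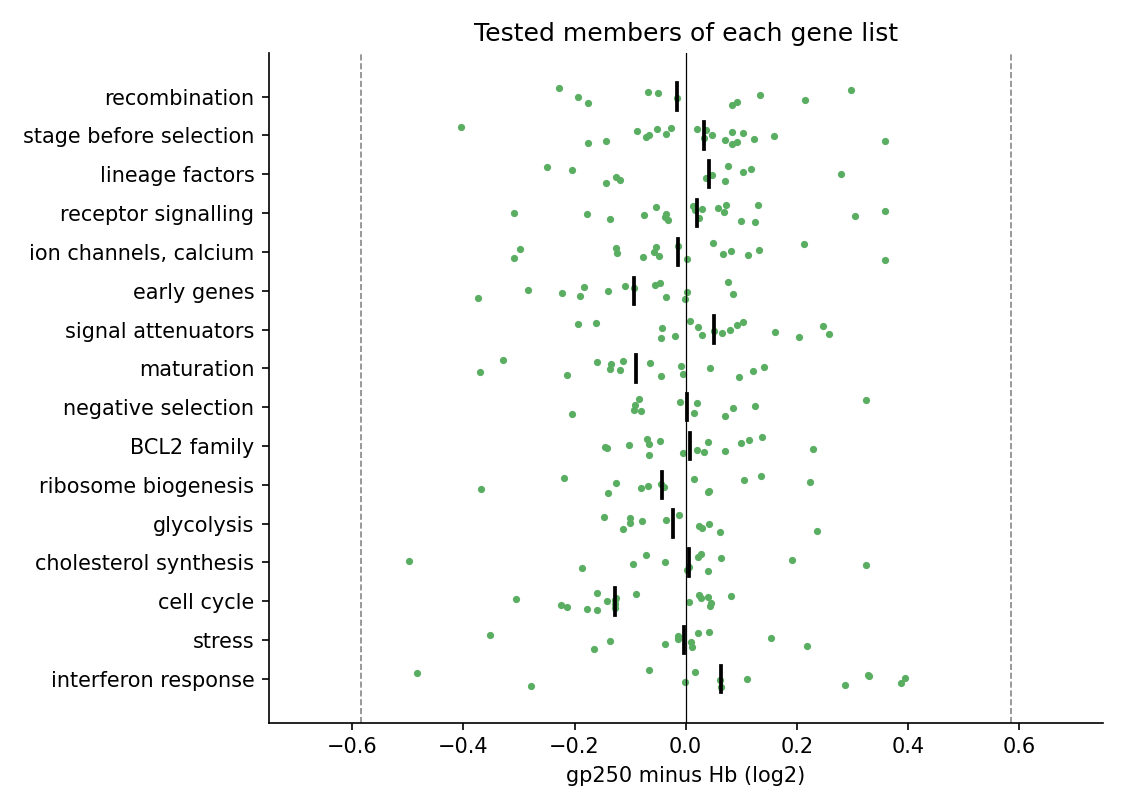
Each point is gp250 minus Hb (log2) of 1 tested gene in 16 lists, with a black bar at the median of the list and dashed lines at 1.5-fold. No point passes the dashed lines, and the medians run from −0.13 (cell cycle) to 0.06 (interferon response).

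Stress genes had a median of −0.0026 over 12 tested members of 17. Hspa5, Dnaja1 and Chac1 were not tested, though detected on both MCC arrays. The heat-shock genes Hspa1a, Hspa8 and Hsph1 differed by −0.17 ± 0.12, 0.01 ± 0.09 and −0.04 ± 0.11, and Hsp90aa1 by 0.22 ± 0.17. Asns, the asparagine synthetase that amino acid stress raises, was the lowest with 6.10 and 6.21 against 6.45 and 6.56. Its arrays did not overlap, and the difference of −0.35 ± 0.10 (−0.58 to −0.12, unadjusted p of 0.0092) was not called.

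Interferon response genes varied between replicates, a pattern noticed after the values were seen. Of 18 listed genes 13 were tested, with 3 higher and 1 lower on both gp250 arrays and a median of 0.06. The intervals of only 7 of the 13 lay within 2-fold and of 5 within 1.5-fold, against 98.5% and 82.0% of all tested probes. Rsad2, an antiviral enzyme, had 8.06 and 8.97 with gp250, 8.55 and 7.82 with Hb and 8.93 and 7.98 with MCC. Usp18, which removes ISG15 from proteins, had 9.68 and 10.29, 9.92 and 9.39, and 9.31 and 8.06 in the same order. For both genes, replicates of 1 ligand lay further apart than the means of gp250 and Hb, whose difference was 0.33 for each.

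Isg15, a ubiquitin-like protein gene, had 8.90 and 9.29 with gp250 and 9.07 and 8.54 with Hb, and its interval was −0.74 to 1.32. Irf7, a factor that amplifies interferon, had 7.62 and 5.68 on the MCC arrays, the widest replicate gap of the list at 1.94, and its gp250 and Hb arrays overlapped (−0.28 ± 0.59). Replicate 1 was the higher one for 12 of the 13 genes with MCC, for 11 with Hb and for 4 with gp250. The median absolute difference between replicates over the 13 genes was 0.954 with MCC, 0.143 with gp250 and 0.175 with Hb, against 0.115, 0.122 and 0.125 over all tested probes. The MCC arrays enter these intervals through the shared spread. In the fit of the gp250 and Hb arrays alone, 11 of the 13 intervals lay within 2-fold. There Ifit3, an interferon-induced antiviral gene, differed by 0.38 ± 0.16 and Oasl1, detected on 1 of the Hb arrays, by 0.39 ± 0.13, Bst2, the gene of tetherin, by −0.48 ± 0.26, and none of the 13 was called. Irf1, which interferon gamma raises, differed by 0.06 ± 0.10 in that fit.

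**Figure D4:**
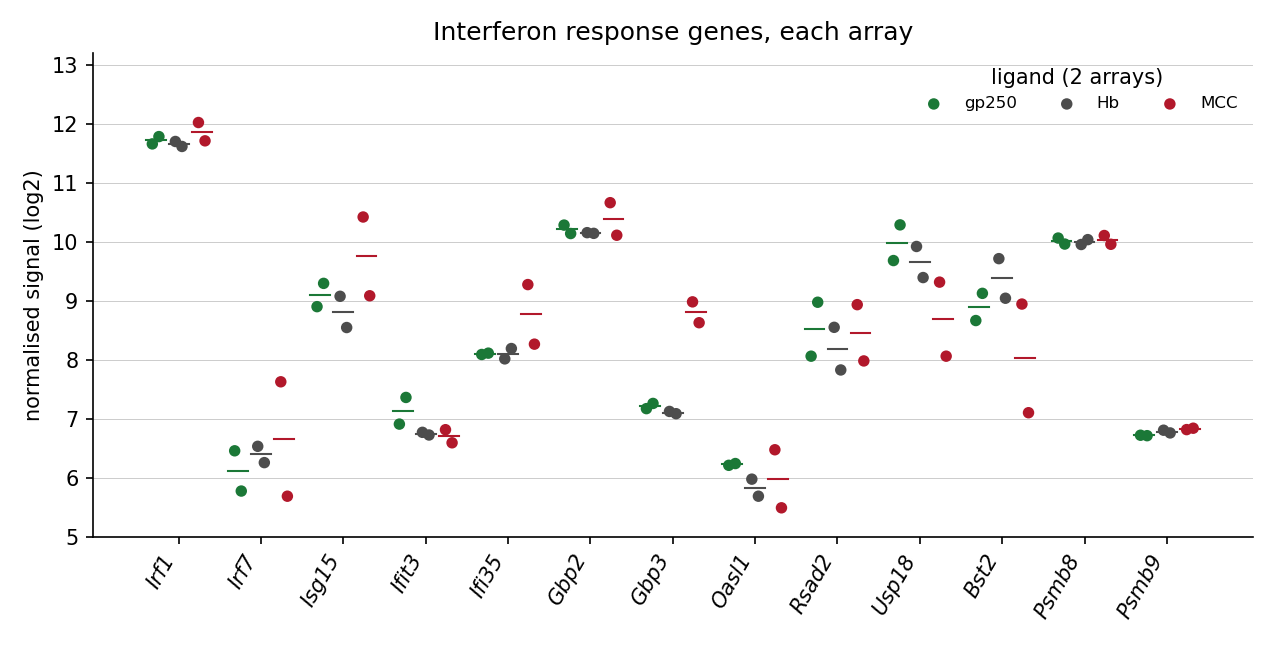
Normalised signal (log2) of the 13 tested interferon response genes, with 1 point per array for gp250, Hb and MCC and a short line at the mean of each ligand. Replicates of Rsad2 and Usp18 lie apart under all 3 ligands, and the MCC replicates of Irf7 lie 1.94 apart.

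Markers of other cells were undetected in part on the 4 arrays. Of 16 myeloid probes 10 were not detected on any of them, as were 5 of 8 erythroid, 4 of 8 B cell, 9 of 12 stromal and 7 of 10 natural killer probes. The summed deposited signal of the myeloid list was 3425 and 3453 with gp250 and 3544 and 3453 with Hb, so that the gp250 sums were both the lower, the nearest pair by less than 1 unit. That of the erythroid list was 4217 and 3644 against 3617 and 4058, most of it from Hba-a1, a haemoglobin chain, at 12.06 and 11.67 against 11.61 and 11.89. These erythroid values overlapped between the ligands, as did the sums of the B cell and stromal lists. For the list of thymocytes before the double-positive stage, with 2 of 9 probes not detected on any of the 4 arrays, the sums did not overlap, at 1821 and 1850 with gp250 against 1663 and 1703 with Hb. Of the B cell list 3 genes were tested, 0 higher and 2 lower on both gp250 arrays, with a median of −0.21. Cd79a, a chain of the B cell receptor, was detected on 1 gp250 array and both Hb arrays. It differed by −0.37 ± 0.14 (unadjusted p of 0.035 from limma) and Vpreb1 by −0.21, while Cd79b, the partner of Cd79a, had a difference of 0.02 ± 0.08. None of the 3 was called. Cd79b was the brightest of them, with a mean signal of 10.19, and made up most of the B cell sum. For mature T cells, 5 of 10 probes were not detected on any array, and the summed signal was 1489 and 1547 with gp250 and 1735 and 1635 with Hb. The sums of this list did not overlap, as those of the natural killer list did not, at 4131 and 4049 against 3809 and 3835. The natural killer list had 3 tested genes with mean signals from 6.29 to 11.99, so that its brightest probe made up most of the sum. Of these 3 genes, 2 were higher and 1 was lower on both gp250 arrays, and none was called. All these sums are of deposited signals without scaling between arrays, whose mean deposited signals ran from 445 to 488. The gap of the myeloid sums is therefore not read as a difference between the ligands. The part of other cells in the differences above was not tested.

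The widest differences were in dim probes. Of the 16 genes with the widest differences (8 each way, no overlap between ligands, detected on both arrays of the higher ligand), 15 were in the lowest of 4 equal classes of tested probes by mean signal and the other one in the next. The highest was Mindy3, a deubiquitinase gene, with 6.68 and 6.76 with gp250 and 5.88 and 5.71 with Hb (0.92 ± 0.16). Birc3, an inhibitor of apoptosis in the NF-kappaB pathway, had 6.13 and 5.97 with gp250 and was not detected on either Hb array, which gives gp250 at least 1.27-fold above Hb. Rad54l2 and Jup were likewise not detected with Hb, with gp250 at least 1.24-fold and at least 1.27-fold above it. Pcdh1, Cpeb1, Serinc5 and Zfp560 had differences of 0.79, 0.76, 0.74 and 0.73. All 16 had an adjusted p of 0.682 or 0.685 from limma.

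The lowest was Prss8, a membrane serine protease gene, with 5.76 and 5.22 against 6.57 and 6.42 (−1.01 ± 0.19). Cln8, Zpld2, Trappc5 and Mbd6 had differences of −0.80, −0.74, −0.73 and −0.71. Adamts17, Lrsam1 and Vps39 were not detected with gp250, with Hb at least 1.24-fold, 1.41-fold and 1.28-fold above it by the mean signals. The intervals of gp250 over Hb reached up to 0.749-fold, 0.884-fold and 0.819-fold in the same order. Of the 16 genes, 4 had another tested probe, and its difference was nearer to 0 or of the other sign. For Serinc5 the other probes gave 0.17 ± 0.08 and −0.03 ± 0.18, and for Trappc5 the other probe gave 0.23 ± 0.12. The second Lrsam1 probe, which was the brighter one, gave 0.29 ± 0.15, and that of Vps39 −0.0048 ± 0.18.

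Some probes crossed the detection limit with 1 ligand alone. Of the 11393 tested probes, 148 were detected on both gp250 arrays and neither Hb array, and 60 the other way round. The second gp250 array had the most detected probes of the 4, 11603. The brightest named genes detected with gp250 alone were Olfr159, Clec2e, Tfcp2, Zbtb1 and Zfp42, where gp250 was at least 1.33-fold to at least 1.40-fold above Hb. Those detected with Hb alone were Nup155, Lrsam1, Gstm5, Aggf1 and Oas1e, with Hb at least 1.32-fold to at least 1.41-fold above gp250. None of the 10 was called. These folds compare mean signals and leave out the spread between arrays. For all 10, the interval of the fit reached nearer to no difference than the fold given. The bound nearest to no difference was, as gp250 over Hb, 1.05-fold for Zfp42, 1.10-fold for Zbtb1 and 0.998-fold for Gstm5.

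The precision depended on signal. In the lowest of the 4 classes by mean signal (5.41 to 6.66), the median absolute difference was 0.168, and 51.5% of the intervals lay within 1.5-fold. In the next classes these were 0.112 and 81.0%, then 0.077 and 96.3%, and in the highest class (9.98 to 15.6) 0.057 and 99.3%. Of the 766 probes at an unadjusted p under 0.05, 411 were in the lowest class, of 2849 probes, and 22 in the highest, of 2848. The moderation used the same prior spread for all classes, so the intervals may be too narrow for dim probes and too wide for bright ones. With a prior that follows intensity, 11270 intervals lay within 2-fold and 9123 within 1.5-fold. Of the 169 probes whose interval was not within 2-fold, 141 were in the lowest class. The intervals of Rag1, Cd3e and Cd8b1 were narrower than those of the dim response genes Il7r and Egr3.

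**Figure D5:**
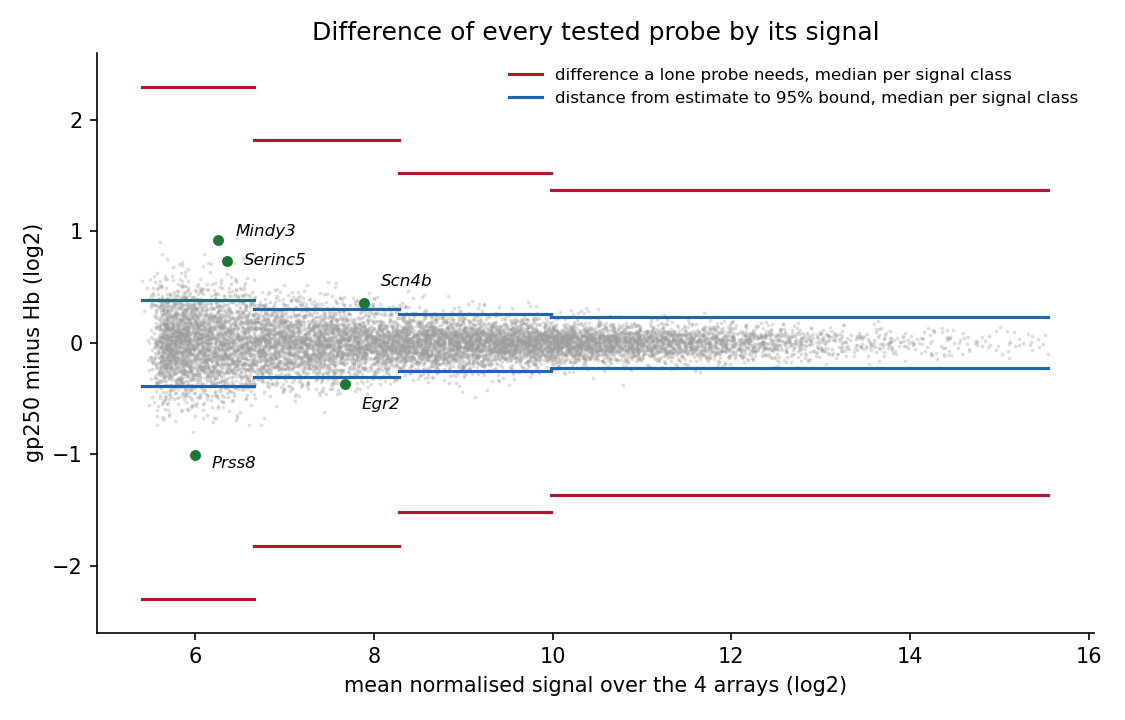
Difference gp250 minus Hb (log2, vertical axis) of the 11393 tested probes by their mean normalised signal over the 4 arrays (log2, horizontal axis), 1 grey point per probe, with 5 named genes in green. Blue lines give the median distance from the estimate to a bound of the 95% interval and red lines the median difference that a lone probe needs to pass the adjustment, per class of signal. The cloud narrows from left to right, and no point reaches the red lines, which stand at 2.30 in the lowest class and 1.37 in the highest.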

How the data were processed

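Total RNA from 6 thymocyte samples, 2 for each of 3 peptide ligands, was hybridised as biotinylated cRNA to Illumina mouse bead arrays with 1 colour, per the labels. For 25697 probes and every array the authors deposited, per the file headers, an intensity without normalization, beside its detection p-value. Intensities go below 0, so a background had been subtracted before deposit. The authors' processed intensity table equals the deposited intensity times 1 factor per array (0.825 to 1.13) and served as an alternative. It stands on a linear scale and is not centred on genes, and its array medians were 17.9, 21.2, 20.5, 18.8, 20.9 and 21.6.

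The limma package 3.58.1 (R 4.3.3) was used throughout. Background was corrected by normexp, its control parameters being derived from the detection p-values, and 16 was added as an offset. Quantile normalization between arrays and log2 transformation followed. The offset pulls differences of dim probes towards 0. Probes with a detection p under 0.05 on at least 2 of the 4 gp250 and Hb arrays were tested (11393, of which 10714 had a symbol, for 7916 genes, 2031 of them with several probes). A model with 1 mean per ligand used all 6 arrays and left 3 residual degrees of freedom, and moderated tests (eBayes without trend) were adjusted by Benjamini-Hochberg over all tested probes. An adjusted p under 0.05 was called. Errors are standard errors from limma, and intervals are 95% intervals from the same fit. The limited number of arrays sets the precision. The script was tested on simulated data.

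A probe that neither array of a ligand detected is known there only by a bound. Its "at least" fold sets the mean normalised signal of the brighter ligand against the dimmer one, whose arrays were each raised to their lowest detected signal where the probe lay below it. Such a fold is a bound on the estimate from the means. It does not include the spread between arrays and is not a limit of the interval. Symbols came from the platform annotation (23978 probes with 1 symbol, 0 with several and 1719 with none here). They were updated by Entrez number through the RefSeq gene table of GRCm38.p6 for 23962 probes, which served for names alone. Scanner software and genome build were not given in the sources used here, and coordinates are therefore left out.

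For each gene of a list the probe with the highest mean signal was used. Genes chosen for naming are a fixed set of 23 (21 with a probe), the first 4 tested members and the extremes of each list, the 8 highest and 8 lowest differences without overlap among probes that both arrays of the higher ligand detected, plus up to 5 genes each way detected with 1 ligand alone. Not all of them are printed in the text, and most chosen members of the lists of other cells are not. The members, the 23 gene lists and the tests were chosen with earlier results of these data known. Of 386 listed names, 343 had a named probe and 249 were tested. The alternatives changed the background correction, offset, scaling, filter, arrays in the fit, probes per gene and the moderation, and left out each array in turn.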

Additional observations from a re-analysis of the deposited data

How the results depend on the processing

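With limma, no probe was called between gp250 and Hb under any of the 21 alternatives, and the smallest adjusted p, 0.414, came with a detection p under 0.01 as the filter. Unadjusted p-values under 0.05 numbered 766 in the reported fit and 541 to 1538 under the alternatives. The share of probes with a 95% interval inside 2-fold stayed between 95.5% and 99.9%. The median absolute difference of 0.0910 moved to 0.0787 with an offset of 50, 0.0964 with no scaling between arrays, 0.0846 with detection required on all 4 arrays, 0.0818 with a detection p under 0.01, 0.0802 with no filter on dim probes and 0.0850 with the mean over the probes of a gene, and it ran from 0.0902 to 0.113 when 1 array at a time was left out. With replicate number as a replicate block, 0 probes were called and 98.5% of the intervals lay inside 2-fold, but the numbers in the titles did not pair the arrays (correlation of same-numbered deviations −0.03 between gp250 and Hb). The number of probes that differed by more than 2-fold, 1 as reported, was 0 with an offset of 50, 7 with no background correction, 6 with the authors' processed table and at most 12 (without gp250 replicate 1); beyond 1.5-fold, 61 became 2 with the offset of 50 and 208 without gp250 replicate 2. The 134 tested genes chosen for naming, not all printed above, gave 2756 values under the alternatives. Of these values 0 were called, and 88 values over 44 genes had the opposite sign to that of the reported fit. List medians were computed under 12 settings only, the reported fit included, and for 15 of the 23 lists they lay on both sides of 0. Without scaling, the median of all tested probes was −0.04. The number of arrays, 2 per ligand, and for dim probes the signal over background limit what can be seen.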
